A study of Mus musculus with 11 samples.

Results

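The regions described are stretches of H3K27ac in Beko cells, a pre-T line of the mouse, that the authors marked as overlapping an RBPJ site and that do not cover a transcription start site (TSS). They were chosen as the rows of the authors' deposited table with RBPJ overlap 1 and a distance to the TSS over 0, which gave 591 of 56342 regions (1.05%), or 38.4% of the 1538 RBPJ-overlapping regions. H3K27ac was profiled by ChIP-seq after 24 h in 3 groups of 2 libraries each. Cells received the gamma-secretase inhibitor DAPT (GSI) at 10 mg/ml, apicidin at 0.01 mg/ml, or DMSO alone as the control, with doses as labelled. RBPJ was profiled in 2 libraries of DMSO cells, and each condition had 1 input. All groups are the same line, and the labels do not say whether replicate libraries stem from separate cultures, so p-values reflect library-to-library spread that may be technical. The table gives fold changes and a mean over libraries but no value per library, so the depth of each library is unknown.

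RBPJ is the DNA-binding protein of the Notch pathway. When a ligand engages a Notch receptor, ADAM10 and then gamma-secretase cut it, and the freed intracellular part joins RBPJ and Mastermind, which bring in histone acetyltransferases. Without it, RBPJ can recruit corepressors with histone deacetylases. Early T-cell development depends on Notch signals, and much of this input is known to come through enhancers away from promoters. H3K27ac marks active promoters and enhancers. Apicidin inhibits histone deacetylases and is named an HDAC3 inhibitor in the series' design text.

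The T-lineage label fits the acetylation map. TSS-covering regions were listed for 34 of 40 T-lineage genes, against 2 of 11 B-lineage, 0 of 12 myeloid, 0 of 9 erythroid and megakaryocyte, 5 of 12 natural killer and innate lymphoid, and 1 of 10 fibroblast and epithelial marker genes.

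The name distal fits the smaller share of these regions. A TSS lay within 1 kb of 354 of them (59.9%), at a median distance of 154 bases, and these are called TSS-flanking below. The other 237 lay farther off, at a median of 25736 bases, and are called remote. The nearest to a TSS were assigned to Orc4 (1 base), Esco2 (2 bases) and Yipf5 (2 bases), with GSI values of -0.07, 0.05 and 0.06 on the log2 scale and none called. Just outside the rule were 947 RBPJ-overlapping regions that cover a TSS, with a median GSI value of -0.022. The farthest were assigned to 4933406K04Rik (419462 bases), 2610307P16Rik (364258 bases) and Pcmtd1 (309213 bases). TSS-flanking regions mostly had a close neighbour: 339 of 354 (95.8%) had another H3K27ac region within 1 kb, at a median gap of 146 bases, against 83.7% of TSS-flanking regions without RBPJ overlap. Among remote regions it was 176 of 237 (74.3%), against 70.1% without RBPJ overlap.

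Remote regions were broad and strong. Their median width was 3640 bp and their median base mean, the authors' mean of normalised read counts over libraries, was 801, against 934 bp and 207 for TSS-flanking regions. Remote regions without RBPJ overlap had medians of 505 bp and 46.6. The highest base means of all lay at Ly6e (11340, chr15:74756666-74772511), 1810026B05Rik (10549, chr7:80737834-80766314) and 4933406K04Rik (10095, chr12:108373997-108401640), from 15846 to 28481 bp wide. The members were spread over 513 gene symbols. No symbol had 4 or more, and only Lef1, Ptma and Ap5z1 had 3.

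A genome of the files' build (mm9) was not used here, so the bases of the regions themselves are not shown. What can be shown are promoter windows from RefSeq on GRCm38.p6, from 250 bases before to 50 after each gene's start, found for 373 of the 513 symbols. They were searched on both strands for letters that RBPJ is known to bind: CGTGGGAA (TTCCCACG on the other strand), the shorter GTGGGAA that it contains, and the core TGGGAA within both. CGTGGGAA stood in 12 of 305 windows (3.93%) of genes with a TSS-flanking region, against 2 of 191 (1.05%) of genes with a remote region and 241 of all 32851 windows (0.734%). GTGGGAA stood in 8.85%, 5.24% and 6.38% of the same windows, and TGGGAA in 26.2%, 16.2% and 25.6%. For genes with an RBPJ-overlapping region over the TSS, CGTGGGAA stood in 3.72%, and for genes whose TSS regions had no RBPJ overlap in 0.776%. These sets share genes, as 149 of the 318 symbols with a TSS-flanking region also have an RBPJ-overlapping region over a TSS. Whether these letters lie inside the mm9 regions was not tested. The windows below belong to the 4 TSS-flanking regions of highest base mean among genes with the full letters, 5′ to 3′ as RefSeq gives them, with CGTGGGAA or its reverse complement in capitals.
Cnot10: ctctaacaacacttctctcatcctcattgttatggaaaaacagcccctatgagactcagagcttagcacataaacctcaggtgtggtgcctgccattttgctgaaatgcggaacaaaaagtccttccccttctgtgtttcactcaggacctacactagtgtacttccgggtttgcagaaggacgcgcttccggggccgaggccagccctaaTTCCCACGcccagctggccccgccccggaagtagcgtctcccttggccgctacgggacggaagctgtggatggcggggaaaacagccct
Zbtb11: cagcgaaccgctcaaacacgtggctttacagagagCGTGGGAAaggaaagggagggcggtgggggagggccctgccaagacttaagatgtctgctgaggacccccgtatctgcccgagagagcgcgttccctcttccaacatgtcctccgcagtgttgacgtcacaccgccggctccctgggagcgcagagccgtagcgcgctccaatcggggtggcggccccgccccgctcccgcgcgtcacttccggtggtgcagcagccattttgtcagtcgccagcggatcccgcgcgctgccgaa
Ddx55: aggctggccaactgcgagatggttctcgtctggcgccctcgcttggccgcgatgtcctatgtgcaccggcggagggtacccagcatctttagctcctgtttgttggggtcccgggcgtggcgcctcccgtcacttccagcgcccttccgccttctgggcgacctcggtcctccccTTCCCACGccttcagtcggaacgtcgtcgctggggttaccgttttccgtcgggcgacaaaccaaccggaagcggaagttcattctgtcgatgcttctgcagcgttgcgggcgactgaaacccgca
Prc1: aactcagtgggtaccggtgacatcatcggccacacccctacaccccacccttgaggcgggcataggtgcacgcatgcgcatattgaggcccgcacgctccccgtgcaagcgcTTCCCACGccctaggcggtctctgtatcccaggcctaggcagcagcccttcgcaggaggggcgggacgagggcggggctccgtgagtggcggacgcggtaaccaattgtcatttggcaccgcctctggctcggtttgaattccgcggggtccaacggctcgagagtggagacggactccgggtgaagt
These windows lie on GRCm38.p6 at chr9:114640151-114640450 (minus strand), chr16:55973554-55973853 (plus), chr5:124552614-124552913 (plus) and chr7:80294201-80294500 (plus). The first base of the capitals stands at -39, -215, -75 and -138 from the start site, in the same order. Cnot10 encodes a subunit of the CCR4-NOT deadenylase complex, Zbtb11 a zinc finger protein, Ddx55 an RNA helicase and Prc1 a microtubule bundler of cytokinesis. In the authors' deposited table the region beside Zbtb11 fell with GSI (-0.70 ± 0.18 SE, adjusted p = 0.00179). The other 3 had GSI values of -0.23 at Cnot10, 0.06 at Ddx55 and 0.05 at Prc1 and were not called there, so 1 of these 4 windows belonged to a region lower with GSI. With apicidin the region beside Prc1 fell (-0.54 ± 0.21, adjusted p = 0.0466 in the authors' deposited table).

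GSI against DMSO asks how H3K27ac changes when gamma-secretase, which cuts Notch and other proteins, is inhibited. Remote RBPJ-overlapping regions lost H3K27ac often and TSS-flanking ones seldom. Of 225 remote regions that DESeq2 tested in the authors' deposited table, 92 fell (40.9%) and 18 rose (8.0%) at an adjusted p under 0.05, with a median log2 fold change of -0.197 over all 237. Of 298 tested TSS-flanking regions 7 fell (2.35%) and 11 rose (3.69%), with a median of 0.042 over all 354. Over both kinds 99 of 523 tested regions fell and 29 rose, and 68 had no adjusted p, each with a base mean under 72.1. Of all 25756 tested regions 7.17% fell and 6.62% rose, and the median over the whole table was 0.002. The TSS-flanking share of decreases was therefore below the background and the remote share far above it. Without RBPJ overlap, TSS-flanking regions had 2.62% lower and 4.98% higher, and remote ones 8.55% lower and 7.46% higher. The low TSS-flanking share was thus not particular to regions with RBPJ overlap. RBPJ-overlapping regions over a TSS lay near the background, with 55 of 937 lower (5.87%) and 39 higher (4.16%). No test of the difference between these sets was made, since regions are not replicates. A lower value can mean less acetylation per cell or fewer cells carrying it, which cannot be told apart here. Read counts were scaled between libraries, so values with either inhibitor are relative. A shift shared by all regions need not show in them.

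**Figure D1:**
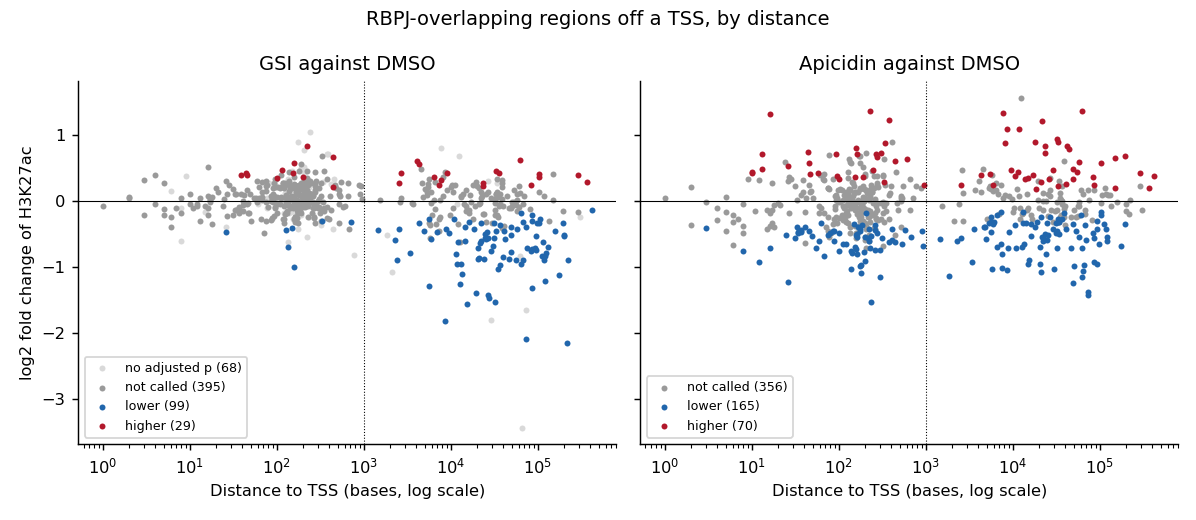
log2 fold change of H3K27ac against the distance to the TSS (bases, log axis) for the 591 RBPJ-overlapping regions off a TSS, with GSI (left) and apicidin (right); each point is 1 region, coloured by the authors' call, and the dotted line stands at 1000 bases. With GSI, 92 of the 99 decreases lie right of the line, whereas apicidin decreases lie on both sides (94 right, 71 left).

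The share of decreases with GSI grew with distance. It was 0.952% at up to 100 bases (1 of 105), 3.05% between 100 and 250 bases (4 of 131) and 3.23% from there to 1 kb (2 of 62). Beyond that it was 25.5% between 1 and 10 kb (14 of 55), 40.2% between 10 and 50 kb (43 of 107), 51.4% between 50 and 100 kb (18 of 35) and 60.7% farther away (17 of 28). For regions without RBPJ overlap the same classes ran from 2.05% nearest the TSS to 11.4% beyond 100 kb. Base mean moved with distance too, from a median of 231 in the nearest class of RBPJ-overlapping regions to 1941 in the farthest, and the share of calls is higher where base mean is high. The part of base mean in the distance trend was not tested. Remote regions were also set side by side by RBPJ overlap within classes of base mean. Between 300 and 1000, 23 of 70 remote regions with RBPJ overlap fell (32.9%), against 591 of 4021 without it (14.7%). Between 1000 and 3000 the shares were 52.9% (46 of 87) against 20.5% (210 of 1022), and from 72.1 to 300 they were 24.4% (11 of 45) against 5.05%. From 3000 up they were 52.2% (12 of 23) against 21.3%. Increases in the same classes, from weak to strong, were called at 4.44%, 7.14%, 6.90% and 21.7% of remote regions with RBPJ overlap, against 4.03%, 13.4%, 18.7% and 26.9% of those without it. TSS-flanking regions with RBPJ overlap fell in 1.94% (2 of 103) between 300 and 1000, against 4.79% (16 of 334) of those without it.

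**Figure D2:**
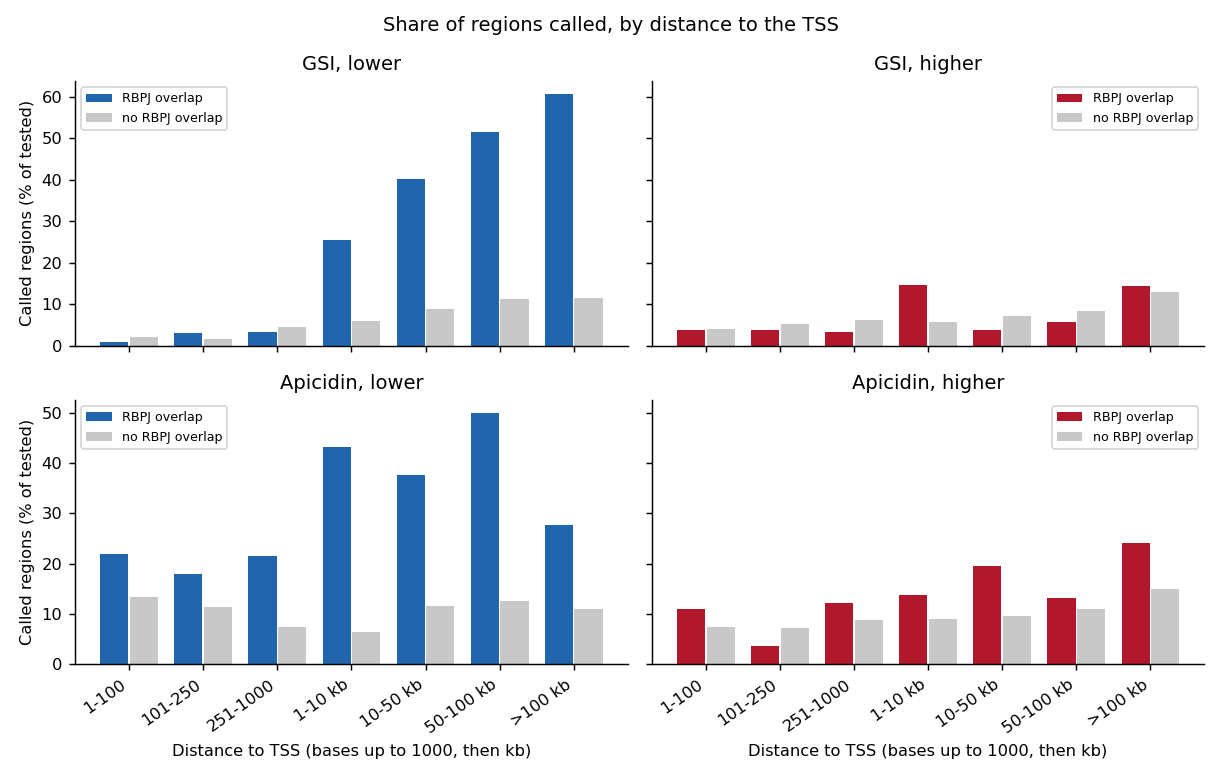
Share of tested regions called lower (left) or higher (right) with GSI (top) and apicidin (bottom), by distance to the TSS of the assigned gene; coloured bars are regions with RBPJ overlap and grey bars those without. With GSI the RBPJ-overlapping share of decreases climbs from 0.952% at up to 100 bases to 60.7% beyond 100 kb, against 2.05% and 11.4% without RBPJ overlap.

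The strongest GSI decreases, among regions at or above the members' median base mean of 319, were all remote. In the authors' deposited table a region 73848 bases from the TSS of Rapgef1, which encodes an exchange factor for Rap1, fell by 2.09 ± 0.10 SE (chr2:29397918-29401391, adjusted p = 1.12e-95). A region 8578 bases from Gm266 (chr12:112707455-112715455) fell by 1.82 ± 0.07 (adjusted p = 1.25e-129) in the authors' deposited table. Both also fell with apicidin in the authors' deposited table (-1.43 ± 0.09 at Rapgef1 and -1.05 ± 0.07 at Gm266). A pair assigned to the noncoding I730028E13Rik, 27097 and 5673 bases from its TSS, fell with GSI in the authors' deposited table (-1.42 ± 0.10 and -1.29 ± 0.07). With apicidin the nearer one fell (-0.32 ± 0.07) and the other had 0.17 ± 0.09, not called in the authors' deposited table. The call of the nearer I730028E13Rik region ended when the trend over base mean was subtracted (-0.17), and the farther one was called higher with that setting (0.32, adjusted p = 0.00141) and with 0 set at the stronger regions (0.27, adjusted p = 0.00991). The Snx10 region, 84900 bases from this sorting nexin gene, fell (-1.32 ± 0.08), as did that of Socs3, a feedback inhibitor of cytokine signalling (-1.26 ± 0.09), in the authors' deposited table. Mir1903 (-1.22 ± 0.10), Rapgef2 (-1.12 ± 0.06) and Tm6sf1 (-1.11 ± 0.07) complete the set together with Dtx1, by the authors' deposited table. Among all 92 remote decreases the median log2 fold change was -0.62 and 15 were of at least 1. Remote regions without RBPJ overlap had a like median of -0.59 among 1376 decreases, 129 of them of at least 1. Of the 7 TSS-flanking decreases 1 was of at least 1, at 4930568K20Rik (-1.0 ± 0.07).

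Remote regions of known Notch targets were prominent among the decreases. Of 26 genes listed as Notch and RBPJ targets, 8 had members, and all 13 of these were remote. By DESeq2 in the authors' deposited table, 11 of the 13 fell with GSI, 2 were not called and 0 rose, also at an unadjusted p under 0.05 (0 higher), with a median of -0.49. Beside them stand 40.9% of all tested remote members and 7.17% of all tested regions called lower. The list and the regions were chosen with results of these data known, so this count is not independent evidence.

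Dtx1 encodes a ubiquitin ligase of the Notch pathway and is a target of it. Its region 19246 bases from the TSS (chr5:121132301-121142431) fell by 1.40 ± 0.09 with GSI (adjusted p = 1.72e-56), whereas its apicidin value was 0.02 ± 0.08 in the authors' deposited table. Hey1, a transcriptional repressor gene, had 2 regions, 46556 and 97998 bases away, which fell with GSI (-0.88 ± 0.07 and -0.33 ± 0.08) and with apicidin (-0.71 ± 0.07 and -0.66 ± 0.08) in the authors' deposited table. Nrarp, a feedback inhibitor of Notch, had 1 region 8689 bases away that fell with GSI (-0.43 ± 0.07) and with apicidin (-0.72 ± 0.07), per the authors' deposited table. For Hey1 and Nrarp both inhibitors thus went with lower values, whereas at the Dtx1 region only the GSI call was made.

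Il2ra encodes the alpha chain of the interleukin-2 receptor, a marker of early thymocytes. Its regions at chr2:11538831-11551364 and chr2:11575921-11580038 fell with GSI (-0.96 ± 0.06 and -0.80 ± 0.13) in the authors' deposited table. With apicidin the first fell by 0.33 ± 0.06 and the second rose by 0.44 ± 0.12 (adjusted p = 0.00146) in the authors' deposited table. Rag2, a subunit of the V(D)J recombinase, had a region 68331 bases away that fell by 0.90 ± 0.09 with GSI, with -0.20 ± 0.09 (adjusted p = 0.0914) for apicidin in the authors' deposited table. The region of Trib2, a pseudokinase gene, fell by 0.49 ± 0.10 with GSI and rose by 0.47 ± 0.09 with apicidin in the authors' deposited table.

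The HMG-box factors Lef1 and Tcf7 act in T-cell commitment, and their regions differed. The 3 Lef1 regions, 84982 to 158417 bases away, fell with GSI (-0.22 ± 0.07, -0.70 ± 0.07 and -0.45 ± 0.07) in the authors' deposited table, nearest first. With apicidin the nearest rose by 0.24 ± 0.07 and the others had 0.09 ± 0.07 and -0.02 ± 0.06, per the authors' deposited table. The 2 Tcf7 regions had GSI values of -0.03 ± 0.08 and -0.22 ± 0.12, neither called, and rose with apicidin by 1.22 ± 0.07 and 0.94 ± 0.11 in the authors' deposited table. Those were the largest called apicidin increases in members of base mean 319 or more. Lef1, Tcf7 and Rag2, which both lists hold, are also the 3 of 40 T-lineage genes with members, 6 regions in all, of which 4 fell and 0 rose with GSI, and 0 fell and 3 rose with apicidin, beside 39.7% lower and 17.7% higher with apicidin among all remote members. The Lef1 region 130506 bases away was also called higher when 0 was set at the stronger regions (0.19, adjusted p = 0.0271) and when the trend over base mean was subtracted (0.24, adjusted p = 0.00275). The list of 36 ligands, receptors, processing enzymes and RBPJ cofactors had a single member. It was a TSS-flanking region of Adam10, the protease that makes the first cut, with 0.18 ± 0.20 for GSI and -0.16 ± 0.20 for apicidin, not called in the authors' deposited table.

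**Figure D3:**
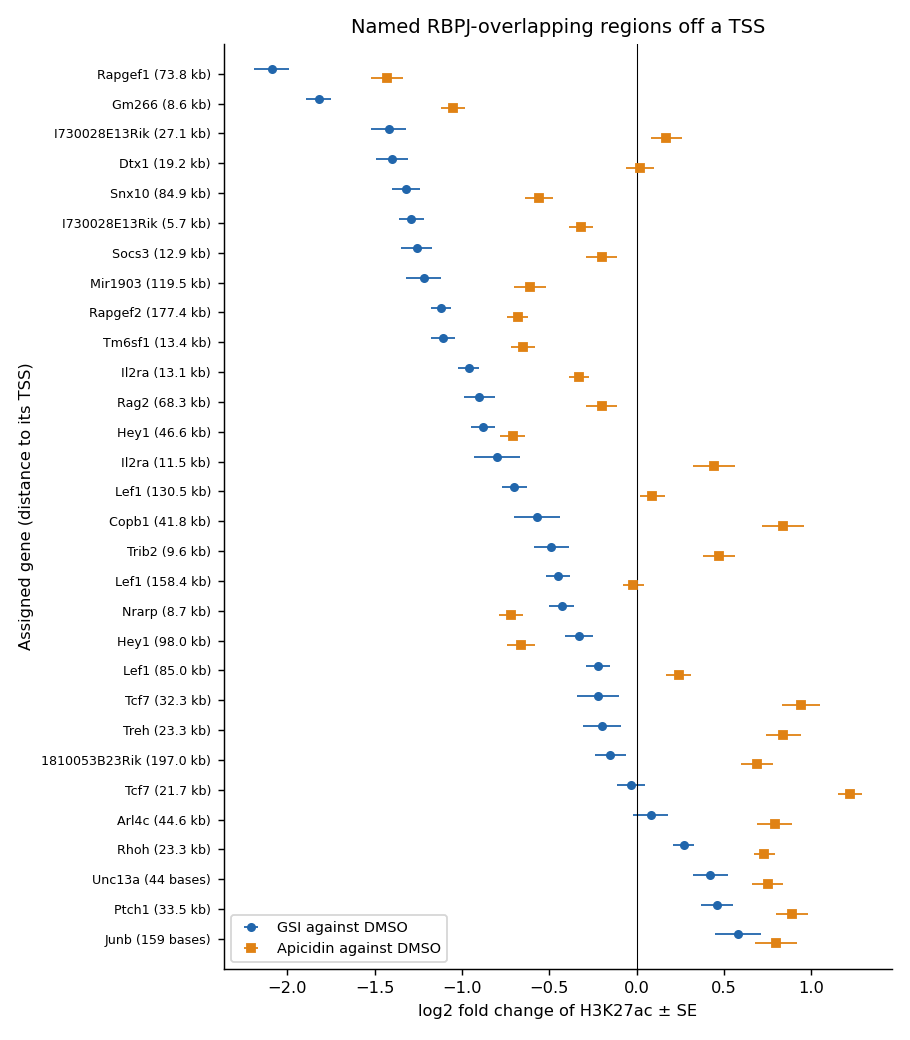
log2 fold change of H3K27ac with its SE for GSI (circles) and apicidin (squares) at the members with the 10 largest GSI decreases, the 10 largest apicidin increases and all Notch-target and T-lineage regions, labelled by assigned gene and distance to its TSS. GSI values run from -2.09 at Rapgef1 to 0.58 at Junb, and the Dtx1, Trib2 and Tcf7 regions have separate GSI and apicidin values.

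The authors assigned each region to 1 gene, which need not be the gene it acts on. Remote regions also lay near Notch-target or T-lineage genes other than their assigned gene. For 30 of them such a gene's TSS region was within 1500 kb. These 30 include the Rag2 and Nrarp regions given above, which fell with GSI and are also counted among the Notch-target members. With GSI 18 of the 30 fell, 10 were not called and 2 were untested, and with apicidin 14 fell, 6 rose and 10 were not called. Beside the GSI count stand 40.9% of all tested remote members and 7.17% of all tested regions called lower. With apicidin 39.7% of all remote members fell and 17.7% rose. Whether nearness to a listed gene matters was not tested. The examples that follow were picked after their values were seen and all fell with GSI. Beside Dtx1 lay 2 regions assigned to Rasal1, at gaps of 22 and 26 kb from the Dtx1 TSS region, which fell with GSI (-0.76 ± 0.13 and -0.56 ± 0.10) in the authors' deposited table. A region assigned to Pabpc4, 25 kb from the TSS region of the Notch target Heyl, fell with GSI (-0.88 ± 0.11) and with apicidin (-0.96 ± 0.11) in the authors' deposited table. In the gene desert downstream of Myc, known for a Notch-dependent enhancer in T-cell leukaemia, a region assigned to Gm20740 (chr15:63082209-63087449, 1259 kb from the Myc TSS region) fell by 0.89 ± 0.08 with GSI (adjusted p = 1.17e-26) and had 0.02 ± 0.08 for apicidin in the authors' deposited table. The Myc TSS region itself fell with GSI (-0.40 ± 0.06) and with apicidin (-0.26 ± 0.06) in the authors' deposited table. Along the desert flanking Bcl11b, a T-cell commitment factor gene, regions at 829, 1189 and 1404 kb from its TSS region fell with GSI (-0.14 ± 0.05, -0.73 ± 0.15 and -0.79 ± 0.06) in the authors' deposited table, the nearest no longer being called with adjustment over all regions. With apicidin the nearest of these rose by 0.38 ± 0.05, and the other two had 0.17 ± 0.14 and 0.09 ± 0.06, not called in the authors' deposited table. A region assigned to C330006A16Rik, 308 kb from the Notch1 TSS region, fell with GSI (-0.88 ± 0.07) and with apicidin (-0.80 ± 0.07) in the authors' deposited table.

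Increases with GSI were fewer and smaller. In members of base mean 319 or more the largest was at Junb, an AP-1 subunit gene, whose TSS-flanking region rose by 0.58 ± 0.13 (adjusted p = 0.000179) in the authors' deposited table. Sema4b (0.56 ± 0.11), Zcwpw1 (0.47 ± 0.14) and the Hedgehog receptor gene Ptch1 (0.46 ± 0.09) followed in the authors' deposited table, then Eef1g (not called with adjustment over all regions) and Gm10509 (0.43 each), Stard3nl and Unc13a (0.42 each), Tgfb3 (0.41) and B230217O12Rik (0.40). Of the 29 increases none was of at least 1 on the log2 scale, against 16 of the 99 decreases. Over all regions 137 of 1706 increases and 164 of 1847 decreases were of at least 1. Median values were 0.40 for increases and -0.60 for decreases among members, against 0.49 and -0.56 over all regions. Outside the called regions, 4 untested members had GSI values under -1, the lowest being a region assigned to 2700054A10Rik with -3.44 ± 0.53 at a base mean of only 40.7. It was singled out after its value was seen.

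Acetylation over the assigned gene's TSS fell at some of these genes and was not called at more. Of the 237 remote regions, 131 had a TSS-covering region of the same symbol, the strongest of which was taken, so that 112 TSS regions stand for 131 remote ones. Where the remote region fell with GSI (52 cases), that TSS region fell in 22, was not called in 29, was untested in 1 and was called higher in 0 by DESeq2. Counted once per gene, these were 46 TSS regions, of which 18 fell, 27 were not called and 1 was untested. Where the remote region was not called (63 cases, 55 genes), 4 TSS regions fell and 4 rose, counted once per gene. Of the 112 TSS regions 18 overlapped RBPJ themselves. In the authors' deposited table the Dtx1 TSS region fell (-1.27 ± 0.08), as did those of Rag2 (-0.96 ± 0.12), Socs3 (-0.73 ± 0.08) and Hey1 (-0.48 ± 0.07). The TSS regions of Nrarp and Tm6sf1 were not called, at -0.10 ± 0.08 and -0.20 ± 0.08 in the authors' deposited table.

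**Figure D4:**
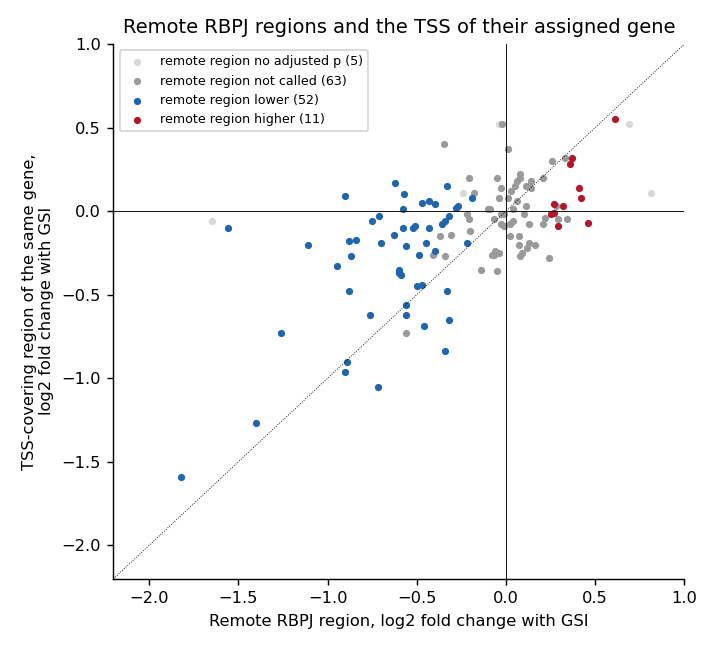
log2 fold change with GSI of 131 remote RBPJ-overlapping regions (x axis) against that of the strongest TSS-covering region of the same gene (y axis), coloured by the call of the remote region, with the dotted line marking equal values. Of the 52 remote regions that fell, 22 had a TSS region that fell and 0 one that rose, with a TSS region plotted once for each remote region of its gene (18 TSS regions behind the 22).

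Regions close to a remote RBPJ-overlapping region, but without RBPJ overlap themselves, also fell more often with GSI. Among those over 1 kb from a TSS, 72 of 219 tested regions (32.9%) fell at a gap of up to 5 kb, and 4 rose (1.83%). The share was 18.4% at 5 to 25 kb (66 of 359), 10.8% at 25 to 100 kb, 9.26% at 100 to 500 kb and 7.52% beyond 500 kb. Over tested and untested regions together, the median base mean was 52.7 in the nearest class and 46.4 in the farthest. The tested regions alone, all with a base mean of 72.1 or more, were not compared in base mean. With apicidin the same 5 classes had 11.1%, 11.7%, 8.04%, 9.02% and 9.97% lower, with no such gradient. The apicidin shares are over all regions, weak ones included (549 in the nearest class, against 219 for GSI). The 2 sets of shares are therefore not like for like. Regions of 1 locus are not independent, so these shares are a description.

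**Figure D5:**
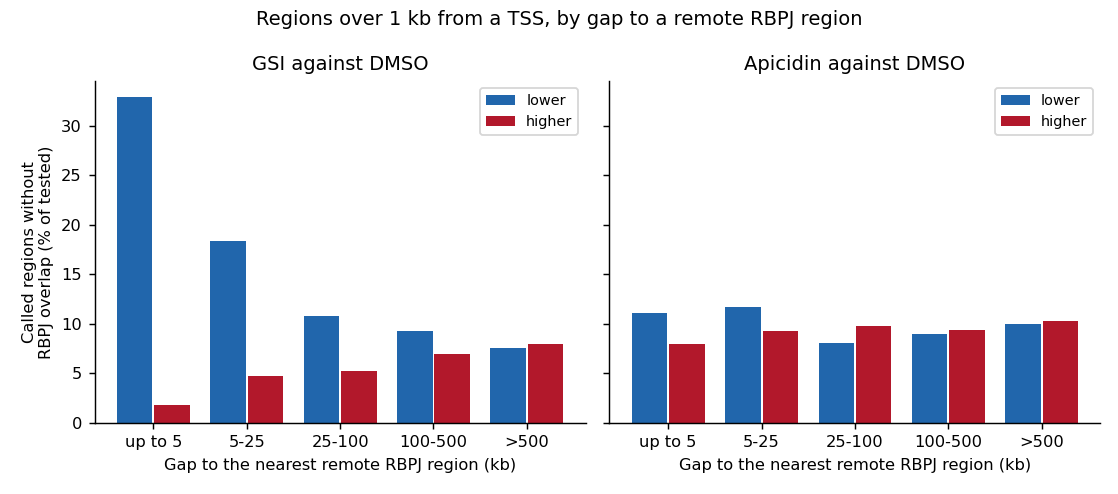
Share of tested regions without RBPJ overlap and over 1 kb from a TSS that were called lower (blue) or higher (red), by the gap to the nearest remote RBPJ-overlapping region, with GSI (left) and apicidin (right). With GSI the lower share is 32.9% at up to 5 kb and 7.52% beyond 500 kb, and the higher share is 1.83% and 7.92%.

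Apicidin against DMSO asks how deacetylase inhibition changes H3K27ac. More members fell than rose in the deposited values, near and far from a TSS, but the counts were nearly even once a trend over base mean was subtracted (remote 62 lower and 65 higher, TSS-flanking 48 lower and 45 higher). At an adjusted p under 0.05 in the authors' deposited table, 165 of 591 members fell (27.9%) and 70 rose (11.8%), with a median of -0.125, against a background of 14.1% lower and 9.69% higher among all 56342 regions and a median of 0.004. Of the remote regions 94 fell (39.7%) and 42 rose (17.7%), and of the TSS-flanking ones 71 fell (20.1%) and 28 rose (7.91%). Without RBPJ overlap, 9.77% of remote regions fell and 10.1% rose, and 326 of 3199 TSS-flanking regions fell (10.2%) and 256 rose. Regions over a TSS fell in 42.4% and rose in 7.39% with RBPJ overlap, and in 38.9% and 8.10% without it. Frequent apicidin decreases were thus not confined to members. The split among members depends on where 0 is set, as apicidin values fall with base mean. The shares outside the members were not recounted with other settings. With 0 set at the median of the stronger regions (-0.099) there were 122 members lower and 105 higher (46.3% of calls higher, against 29.8% as deposited). Subtracting the trend over base mean left 110 lower and 110 higher. The GSI split stayed at 99 and 29 on centring and became 100 and 27 without the trend. At a base mean of 1000 to 3000, 46.0% of remote RBPJ-overlapping regions fell with apicidin and 20.7% rose, against 33.3% and 30.4% of those without RBPJ overlap. Between 300 and 1000, TSS-flanking members fell in 29.1%, against 32.6% of TSS-flanking regions without RBPJ overlap.

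After Rapgef1, the next largest apicidin decrease in members of base mean 319 or more was a region 48826 bases from Kcns2, a potassium channel gene, which fell with apicidin (-1.25 ± 0.08, adjusted p = 4.60e-46) and with GSI (-0.77 ± 0.09) in the authors' deposited table. TSS-flanking regions of Inpp5a, an inositol phosphatase gene, and Frmd6 fell with apicidin (-1.16 ± 0.14 and -1.09 ± 0.16), with GSI values of -0.10 ± 0.14 and -0.09 ± 0.16 in the authors' deposited table. Pcgf5 (-1.04 ± 0.14), Rps28 (-1.03 ± 0.15), Wdr45 (-1.01 ± 0.14) and Zfp873 (-0.98 ± 0.12) fell with apicidin in the authors' deposited table and were not called with GSI. On the other side, after Tcf7, the region of Ptch1 rose by 0.89 ± 0.09, that of Copb1, a coatomer gene, by 0.84 ± 0.12 and that of Treh, the trehalase gene, by 0.84 ± 0.10 in the authors' deposited table. Junb (0.80 ± 0.12), Arl4c (0.79 ± 0.10), Unc13a (0.75 ± 0.09), Rhoh, a blood-cell GTPase gene (0.73 ± 0.06), and 1810053B23Rik (0.69 ± 0.09) followed in the authors' deposited table. The last lay 322 kb from the TSS region of Runx1, which rose by 0.46 ± 0.07 with apicidin there.

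The direct comparison asked where the inhibitors differed. The difference of both log2 fold changes (apicidin minus GSI) was set against the root of their summed squared SEs, which overstates the error because both use the same DMSO libraries. With Benjamini-Hochberg adjustment over all regions, 84 members were higher with apicidin than with GSI (14.2%) and 66 lower (11.2%), against 3.01% and 5.60% of the whole table. The median base mean was 319 for members and 61.3 for the whole table. The difference was not compared within classes of base mean, so the part of base mean in this and the following shares was not tested. With an SE that leaves out the shared DMSO part the balance among members turned, to 111 higher and 131 lower. With 0 set at the median of the stronger regions, 91 members were higher and 45 lower. The remote and TSS-flanking shares that follow were not recounted with these settings. Remote regions leaned to the apicidin side, with 70 higher (29.5%) and 32 lower (13.5%), and TSS-flanking ones to the other, with 14 higher (3.95%) and 34 lower (9.60%). Without RBPJ overlap, TSS-flanking regions leaned the same way (1.75% higher, 4.69% lower), and remote ones had 2.81% higher and 2.73% lower. RBPJ-overlapping regions over a TSS had 5.07% higher and 22.3% lower. The largest positive difference was at the farther I730028E13Rik region (1.59 ± 0.13, adjusted p = 1.12e-30), then at Dtx1 (1.42 ± 0.12), Copb1 (1.41 ± 0.17), the nearer Tcf7 region (1.25 ± 0.10) and the second Il2ra region (1.24 ± 0.18). These combine regions that fell with GSI and regions that rose with apicidin. At Copb1 and the second Il2ra region both occurred, Copb1 having -0.57 ± 0.13 for GSI in the authors' deposited table. The largest negative differences were at Inpp5a (-1.06 ± 0.20), Wdr45 (-1.02 ± 0.20), Frmd6 (-1.0 ± 0.22), Trappc9 (-1.0 ± 0.17) and Phf13 (-0.97 ± 0.21), none of which was called with GSI. The nearer Hey1 region had a difference of 0.17 ± 0.09 (adjusted p = 0.34), which does not show that both inhibitors act alike there.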

How the data were processed

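The material was the authors' table of DESeq2 results for H3K27ac regions, with 0 columns of values for single libraries. FastQC, Bowtie2, SAMtools, deepTools and the build mm9 appear in the submitters' processing notes. The sources used here do not give the authors' region caller, counter, DESeq2 version or the overlap behind the RBPJ mark. Per the file headers, the base mean is a signal, the mean of normalised read counts. The log2 fold changes, their SEs and the Wald score were deposited for each treatment. Their reference is not in the headers and was taken to be DMSO. The p-values, raw and adjusted, were deposited by the authors from DESeq2.

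Members and gene lists were chosen with earlier results of these data known. Calls used the authors' adjusted p under 0.05, and missing values were kept as untested. The apicidin-GSI contrast was computed from the deposited fold changes and SEs (normal approximation, two-sided, Benjamini-Hochberg over all regions). It was also run on simulated data whose noise was drawn from the deposited SEs, which cannot show whether those SEs are right. The split at 1 kb was chosen after seeing the distances. Named regions were, at or above the members' median base mean, the 10 largest called changes each way per treatment and the 5 largest differences each way. All regions of the Notch and T-lineage lists, symbols with 4 or more members, and the 3 extremes of base mean and distance were added. 1 region that this rule names is not reported here. Alternatives were thresholds, adjustment, scaling, distance and 1 region per symbol. RefSeq (GRCm38.p6) matched 475 of 513 symbols. Python 3.11.15, pandas 2.3.3 and scipy 1.17.1 were used.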

Additional observations from a re-analysis of the deposited data

How the results depend on the processing

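The count of GSI decreases among members stayed between 78 and 106 (99 as reported) under thresholds of 0.01 and 0.10, adjustment over all regions, both scalings, distances of at least 1 kb or 10 kb, and 1 region per symbol. GSI increases (29) became 18 at a threshold of 0.01, and 18 and 10 at distances of at least 1 kb and 10 kb, which leave 237 and 179 members. At these distances apicidin decreases (165) became 94 and 69 and increases (70) became 42 and 34. Subtracting the trend over base mean raised apicidin increases to 110. For apicidin minus GSI, the lower count (66) became 32 at a distance of at least 1 kb and 131 with the SE that leaves out the shared DMSO part, against 84 and 111 for the higher count. The median GSI value was -0.197 at a distance of at least 1 kb, against -0.019 for all members. No direction of a named, called region was reversed under the thresholds, adjustments or scalings. Among named regions, adjustment over all regions ended 2 GSI calls (Eef1g and 4933406K04Rik). Subtracting the trend ended 2 apicidin calls (Ly6e and the nearer I730028E13Rik region) and made 4 others, and centring on the stronger regions ended 1 and made 3. For the difference, centring ended 3 calls and made 1, and the smaller SE made 6. No paired analysis was possible because the table holds no value per library. For the same reason no replicate could be left out. Base mean limits the weak members: 68 had no GSI adjusted p.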
